A study of Mus musculus with 6 samples.

Results

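The comparison concerned 6 heart libraries that fell into an atrial-rich and an atrial-poor side. The atrial-rich side was libraries 1, 5 and 6, in which the FPKM of Myl7, summed over its transcripts, was above 100, and the atrial-poor side was libraries 2, 3 and 4, in which it was below 20. Each side held 3 of the 6 libraries, and these were all libraries of the series. FPKM, the fragments per kilobase of transcript relative to the mapped fragments of a library, was the deposited unit. All mice were 32 weeks old and lacked apolipoprotein E. Libraries 1, 2 and 3 came from ApoE-/- mice, the littermate controls, and libraries 4, 5 and 6 from ApoE-/- Timp3-/- mice, labelled as also lacking Timp3, the gene of a secreted protease inhibitor. Timp3 transcript was still present in these libraries, at a scaled mean of 26.7 against 40.6 in the controls. The atrial-rich side therefore mixed 1 control with 2 double mutants, and the atrial-poor side 2 controls with 1 double mutant. The labels call the tissue heart and say nothing of which chambers were taken, so atrial content here is read from transcripts alone.

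Atrial and ventricular heart muscle carry different versions of the same machinery. Atrial cells use their own regulatory and essential myosin light chains, restrain the calcium pump SERCA with sarcolipin as well as phospholamban, respond to acetylcholine through a muscarinic potassium current, and store atrial natriuretic peptide in granules. The atria also carry or adjoin the sinoatrial node, the inlets of the great veins, the atrioventricular valves and a covering of epicardial fat.

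The libraries were divided on Myl7, the atrial regulatory light chain (NCBIM37 chr11:5796640-5798785, minus strand). Its deposited FPKM was 409, 173 and 229 in libraries 1, 5 and 6, and 2.09, 1.21 and 13.4 in libraries 2, 3 and 4. The lowest value inside the atrial-rich side was thus 173, in library 5, and the highest value below it was 13.4, in library 4. The other 5 given markers, Myl4, Sln, Bmp10, Sbk2 and Stard10, gave the same sides when used in place of Myl7. They were given together with the split, and their ranking always places 3 libraries on a side, so this is no independent support. The sides were chosen by measured values, those of Myl7, so every difference between them is a description, with no test and no p-value. In bulk libraries, fewer cells of a type and less RNA per cell cannot be told apart.

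Promoters are shown for an atrial gene that chose the split, an atrial gene that followed it, and the neighbouring natriuretic peptide genes Nppa and Nppb, which differed from each other. Each line is the 250 bases before the RefSeq start, 5′ to 3′ on the gene's strand, in build GRCm38.p6. The windows are Myl7 chr11:5898783-5899032 (minus strand), Mybphl chr3:108364661-108364910, Nppa chr4:148000472-148000721 and Nppb chr4:147985650-147985899 (plus strand). Capitals mark letters that match a motif of a cardiac factor or the TATA box on either strand.
Myl7: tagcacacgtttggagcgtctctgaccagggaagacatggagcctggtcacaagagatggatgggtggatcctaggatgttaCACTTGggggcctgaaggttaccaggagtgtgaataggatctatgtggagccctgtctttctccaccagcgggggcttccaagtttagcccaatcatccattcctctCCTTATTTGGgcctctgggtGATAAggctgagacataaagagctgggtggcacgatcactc
Mybphl: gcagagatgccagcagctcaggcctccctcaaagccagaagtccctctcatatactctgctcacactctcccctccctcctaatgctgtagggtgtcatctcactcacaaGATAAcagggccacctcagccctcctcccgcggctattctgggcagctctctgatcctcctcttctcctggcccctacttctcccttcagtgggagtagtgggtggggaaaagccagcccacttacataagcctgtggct
Nppa: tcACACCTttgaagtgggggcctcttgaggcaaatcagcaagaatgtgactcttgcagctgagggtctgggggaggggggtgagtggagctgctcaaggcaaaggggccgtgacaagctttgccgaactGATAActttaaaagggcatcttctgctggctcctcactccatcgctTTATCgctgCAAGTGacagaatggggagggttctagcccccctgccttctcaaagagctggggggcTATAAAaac
Nppb: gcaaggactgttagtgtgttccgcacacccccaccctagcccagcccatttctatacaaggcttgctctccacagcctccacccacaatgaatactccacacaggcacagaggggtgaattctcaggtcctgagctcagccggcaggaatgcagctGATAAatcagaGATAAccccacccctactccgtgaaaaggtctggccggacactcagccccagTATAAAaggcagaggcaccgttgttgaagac

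The motifs searched were GATAA for GATA factors, AGGTGT for T-box factors, CAAGTG for NKX2-5, TATAAA for the TATA box, and the CArG box and the MEF2 site by name. The Myl7 window held CAAGTG on the opposite strand, a CArG box, whose pattern though not its letters is the same on both strands, and GATAA. The Mybphl window held GATAA alone. The Nppa window held GATAA on each strand and CAAGTG. It also held the T-box motif on the opposite strand and the TATA box. The Nppb window held GATAA at 2 places and TATAAA, and none of the matches overlapped another motif. Among 32851 windows of the same length, 22.6% held GATAA, 11.8% AGGTGT, 11.6% CAAGTG, 12.4% TATAAA, 1.47% a CArG box and 0.508% a MEF2 site. A match describes letters and is not a binding site.

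The sides also differed in depth and in the share of aligned bases placed on genes. The aligned bases behind the FPKM came to 654 to 732 megabases in the atrial-rich libraries and to 827 to 1339 in the atrial-poor ones. The share of aligned bases placed on genes was 79.6% to 81.2% on the atrial-rich side and 74.8% to 75.7% on the atrial-poor side. Transcripts assembled within a single library held 34.0% to 35.6% of the aligned bases on the atrial-rich side and 37.2% to 39.6% on the atrial-poor side. These ranges do not overlap, so depth and side cannot be told apart. In the text below, levels are FPKM put on a common scale with median-of-ratios factors, and the values of libraries 1, 5 and 6, in that order, are set against those of libraries 2, 3 and 4. Differences are atrial-rich minus atrial-poor means of log2(scaled FPKM + 1), which understate the change of low genes. A gene is said to follow the split where all 3 libraries of one side lay above all 3 of the other and the log2 difference was at least 1 in size. Without Myl7, 11629 genes were compared, of which 63 were higher by this rule, 0.542% of them, and 23 were lower, 0.198%. Without library 3 the counts were 102 and 53, without library 6 they were 98 and 37, and the lower count was 41 without library 1 and 42 without library 5. With fewer libraries the no-overlap rule is easier to meet, and both counts rose whichever library was left out.

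The list of atrial muscle genes followed the split with the largest median difference of the heart lists. It holds the light chains, sarcolipin, the alpha heavy chain and a myosin-binding protein, and also the kinases Sbk2 and Sbk3 and the lipid transfer gene Stard10. The median log2 difference of the 7 compared besides Myl7 was 2.93, against -0.0054 over all compared genes. Of these 7, 6 were higher in the atrial-rich libraries by the rule, against 0.542% of all compared genes. Myl4, Sln, Sbk2 and Stard10 among them are given markers of the split, so these values follow in part from the choice of genes. Sln, which encodes the SERCA inhibitor sarcolipin (NCBIM37 chr9:53698058-53701651), was at a scaled FPKM of 129, 66.3 and 103 against 0.784, 1.64 and 2.00. The means were 99.4 ± 31.7 and 1.47 ± 0.624 (SD, n = 3 each), a 67.4-fold ratio and a log2 difference of 5.32 ± 0.36 (SE). Every atrial-rich library exceeded every atrial-poor one by a wide margin.

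Myl4, the atrial essential light chain (chr11:104411977-104457067), was at 271, 155 and 236 against 9.79, 6.87 and 19.6. Its log2 difference was 4.16 ± 0.47 (SE), an 18.3-fold ratio of the means. Mybphl, a relative of the myosin-binding proteins (chr3:108167829-108182974), was at 20.4, 12.2 and 14.2 against 0.0911, 0.152 and 0.513. The log2 difference of Mybphl was 3.72 ± 0.25 (SE), a 62.0-fold ratio of low atrial-poor levels, and the sides did not come near each other.

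The kinase genes Sbk3 and Sbk2, which lie side by side on chromosome 7, differed less. Sbk3 was at 17.3, 11.0 and 15.1 against 0.494, 0.818 and 1.98 (log2 difference 2.93 ± 0.35 SE). Sbk2 was at 7.47, 5.77 and 9.79 against 0.837, 1.09 and 2.66 (log2 difference 1.82 ± 0.36 SE). In libraries 1, 4, 5 and 6 the whole value of Sbk2 came from assembled transcripts, with its reference transcript listed at 0. That reference transcript had a deposited FPKM of 0.843 in library 2 and 0.288 in library 3, so alone it did not follow the split upward. Stard10, a lipid transfer protein gene, was at 31.0, 21.6 and 32.9 against 7.77, 9.58 and 15.3 (log2 difference 1.34 ± 0.32 SE). For all of these the sides were separate, but library 4 came closest to the atrial-rich side. Myh6, the alpha myosin heavy chain that adult mouse ventricle uses as well as atrium, was between 629 and 902 in all 6 libraries and overlapped between the sides, with a log2 difference of 0.10.

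Library 4 was the highest of the atrial-poor libraries for each of the 7 atrial muscle genes, as it was for Myl7. Over all compared genes, library 4 was highest of the 3 in 37.1%. The 7 genes were read from the same library and are not independent of each other. Over all 26 compared genes of the atrial lists the count was 13.

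**Figure D1:**
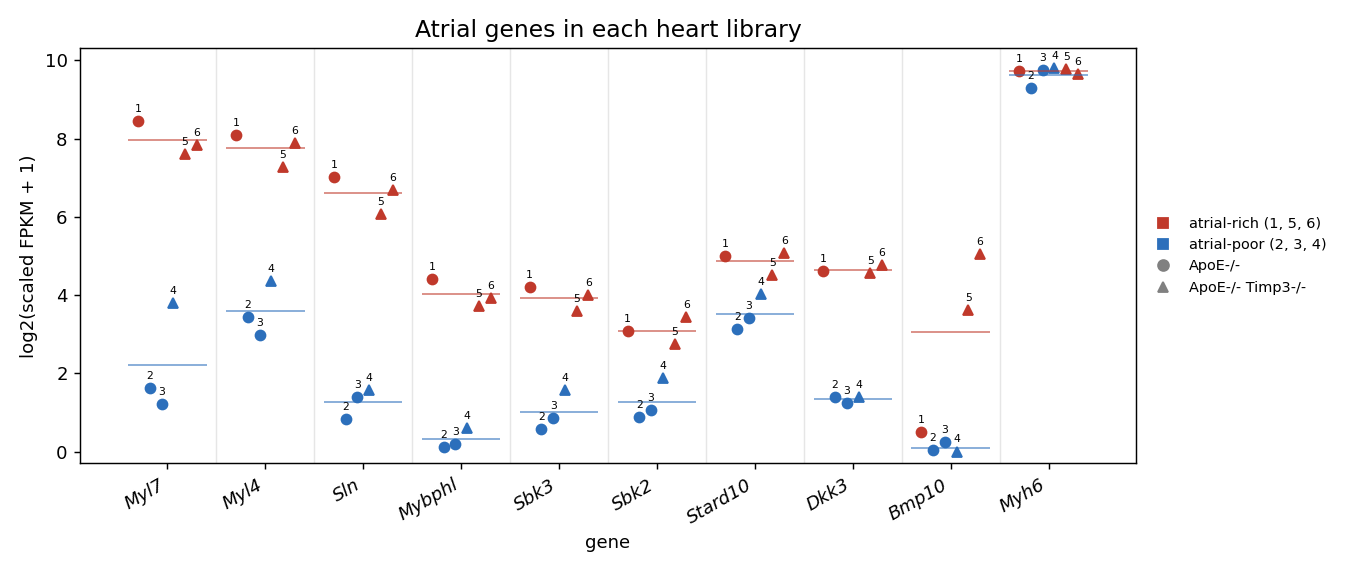
Scaled FPKM of 10 atrial genes in each library, as log2(scaled FPKM + 1) on the vertical axis, with red points for the atrial-rich and blue for the atrial-poor libraries, circles for ApoE-/- and triangles for ApoE-/- Timp3-/-, numbers for the library and lines for the mean of a side. The sides are separate for every gene shown but Myh6, which overlaps, and for Bmp10 library 1 lies close to the atrial-poor libraries at 0.409.

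Set against their nearest relatives, the atrial proteins' transcripts stayed well below the level of the ventricular or shared relative. Myl7 came to 10.9%, 4.38% and 5.73% of the FPKM of Myl2, the ventricular regulatory light chain, in libraries 1, 5 and 6. In libraries 2, 3 and 4 it came to 0.0413%, 0.0321% and 0.236%. Myl4 came to 20.9%, 8.78% and 15.3% of Myl3, the ventricular essential light chain, on the atrial-rich side, and to 0.419%, 0.388% and 0.934% on the atrial-poor side. Sln came to 9.62%, 3.85% and 5.82% of Pln, the phospholamban gene, against 0.0634%, 0.0892% and 0.150%. Library 1 was the highest in all 3 pairs and library 4 the highest of the atrial-poor side.

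**Figure D2:**
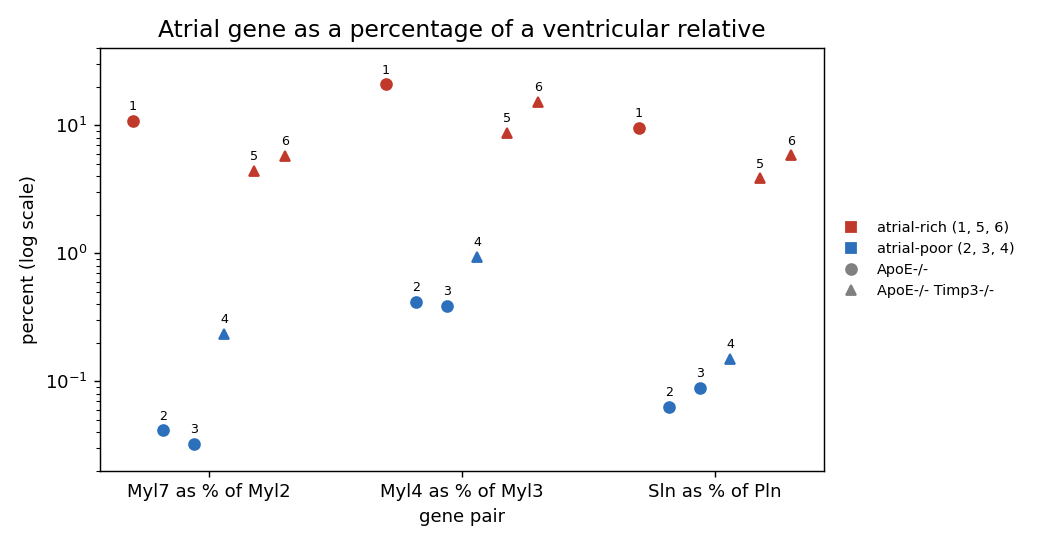
FPKM of Myl7, Myl4 and Sln as a percentage of Myl2, Myl3 and Pln in each library, on a log scale, with colours and symbols for side and genotype. Library 1 is highest in each pair, at 10.9%, 20.9% and 9.62%, and no atrial-poor library reaches 1%.

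Within the atrial-rich side the proportions to Myl7 varied from gene to gene. Myl4 was 77.0%, 80.5% and 104% of Myl7 in libraries 1, 5 and 6, Sln 36.8%, 34.4% and 45.3%, and Mybphl 5.81%, 6.34% and 6.26%. Sbk2 was 2.13%, 2.99% and 4.32% of Myl7 and Stard10 8.82%, 11.2% and 14.5%, both lowest in library 1 and highest in library 6. Bmp10 had the widest spread, at 0.116%, 5.83% and 14.2%. The order of Myl7 on this side, library 1 over 6 over 5, was shared by 6 of the 26 atrial genes and by 21.2% of all compared genes, so the share of atrial genes in that order was near the background.

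Secreted atrial products gave a divided picture. Of 7 compared, Dkk3 and Bmp10 followed the split, Pam was higher without overlap but by a log2 difference under 1, and Nppa, Angpt1, Dbh and Clu overlapped. The shares over all compared genes were 0.542% following the split upward and 8.72% higher without overlap. Dkk3, a secreted member of the dickkopf family (chr7:119259533-119302571), was at 23.6, 22.5 and 26.1 against 1.65, 1.36 and 1.63. Its log2 difference of 3.30 ± 0.08 (SE) had a small error, since neither side varied much, and library 4 did not stand above libraries 2 and 3 here.

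Bmp10, an atrial ligand of the BMP family that acts on endothelium (chr6:87378996-87384506), was uneven. It was at 0.409, 11.2 and 32.2 in libraries 1, 5 and 6, at 0.0216 and 0.181 in libraries 2 and 3, and listed at 0 in library 4. The log2 difference of 2.96 ± 1.35 (SE), or 1.96 without library 6, rested on the double mutant libraries 5 and 6, where the whole value came from 1 assembled transcript each and the reference transcript was listed at 0. Library 1 had the most Myl7 and little Bmp10. With reference transcripts alone, Bmp10 was below the minimum level and was not compared. Tmem100, an endothelial gene known to respond to this ligand, was looked at after its values were seen. It was at 12.1 and 9.09 in libraries 5 and 6 and between 1.37 and 1.99 in the other 4. Of 11 genes of the BMP9 and BMP10 pathway, receptors and targets included, Bmp10 was the one that followed the split, and Eng, the endoglin coreceptor, was lower without overlap (log2 difference -0.26 ± 0.03 SE). The shares over all compared genes were 0.542% following the split upward and 8.95% lower without overlap.

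The natriuretic peptides did not move as a unit. Nppa, which encodes atrial natriuretic peptide (chr4:147374831-147376188), was at 707, 546 and 842 against 796, 113 and 138. Library 2, among the lowest for Myl7, thus had nearly the highest Nppa, and the sides overlapped (log2 difference 1.57 ± 0.91 SE). Without library 2 Nppa followed the split, with a difference of 2.45, and without library 3 the difference was 1.05. Nppb, the neighbouring gene of B-type natriuretic peptide (chr4:147359897-147361314), ran the other way, at 29.4, 29.0 and 20.1 against 132, 44.2 and 33.5. Its log2 difference was -1.14 ± 0.62 (SE), the only member of the heart lists that was lower by the rule. Without library 2 the difference was -0.56 and without library 6 it was -0.97, both short of -1. Nppb came to 4.16%, 5.31% and 2.39% of Nppa against 16.6%, 39.2% and 24.4%, without overlap.

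Of the genes that process or clear these peptides, Pam, Corin and Npr3 were higher on the atrial-rich side without overlap, by a log2 difference under 1. The proteases Furin (0.09 ± 0.08 SE) and Mme (0.38 ± 0.36 SE), which process and degrade peptides, overlapped. Pam, whose enzyme is abundant in atrial granule membranes, was at 425, 394 and 452 against 273, 214 and 254 (log2 difference 0.78 ± 0.12 SE). Corin, which encodes the protease that cuts the precursor of atrial natriuretic peptide, was at 33.8, 35.5 and 40.4 against 19.0, 28.8 and 26.4 (log2 difference 0.56 ± 0.19 SE). Npr3, the clearance receptor, was at 4.77, 4.32 and 4.47 against 2.55, 2.80 and 2.42 (log2 difference 0.62 ± 0.06 SE). Lack of overlap upward held for 8.72% of all compared genes and downward for 8.95%, against 3 upward and 1 downward of the 9 compared in this list.

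**Figure D3:**
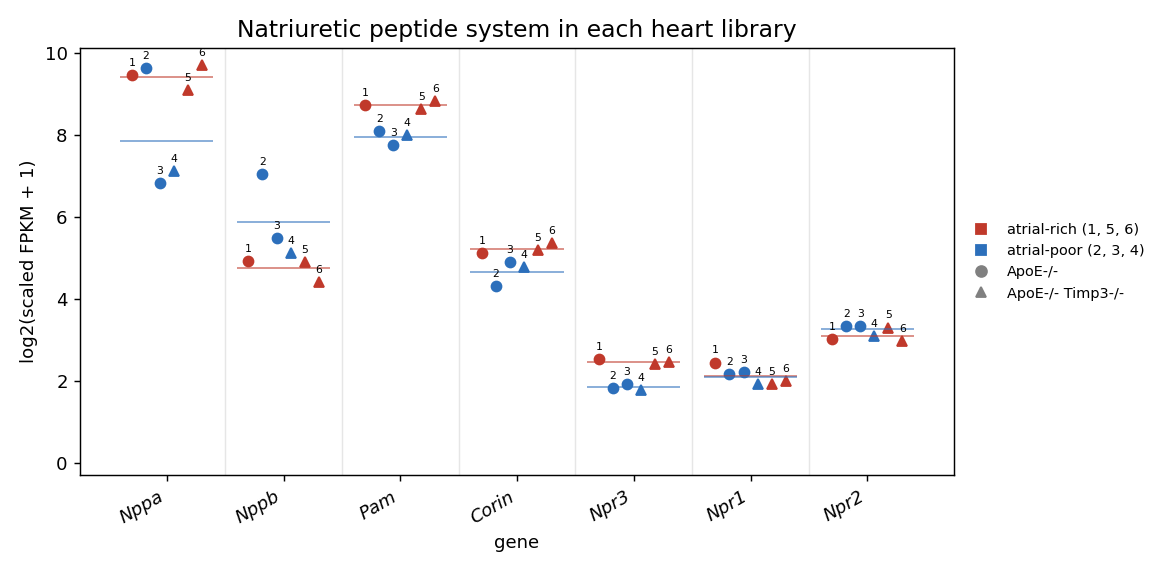
Genes of the natriuretic peptide system in each library, as log2(scaled FPKM + 1), with colours for side, symbols for genotype, numbers for the library and lines for the mean of a side. Nppa overlaps because of library 2 at 796, Nppb is lowest in the atrial-rich libraries, and Pam, Corin and Npr3 are separate by a log2 difference under 1.

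Atrial ion channels had a lower median difference than the atrial muscle genes, a list that holds given markers of the split. Of 7 compared, Kcnj3 and Cacna2d2 followed the split upward, against 0.542% of all compared genes. The list's median log2 difference was 0.59. Kcnj3, a subunit of the acetylcholine-gated potassium channel, was at 40.2, 31.2 and 45.5 against 9.29, 23.0 and 16.7 (log2 difference 1.27 ± 0.39 SE). Without library 2 its difference was 0.94. Kcnj5, the partner subunit, was at 14.9, 15.2 and 15.9 against 6.78, 10.5 and 11.2, separate by a log2 difference under 1 (0.67 ± 0.21 SE). Both subunits were thus higher in each atrial-rich library.

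Cacna2d2, an accessory subunit of calcium channels, was low throughout, at 0.827, 2.31 and 2.50 against 0.186, 0.184 and 0.356 (log2 difference 1.16 ± 0.31 SE). Without library 5 its difference was still 1.04, without overlap, and without library 6 it was 0.988. Either way its mean FPKM fell below the minimum of 1, so the gene was no longer compared and its call was lost. Gja5, which encodes connexin 40 of atrial and conduction myocytes, was at 3.98, 1.71 and 2.85 against 1.41, 1.33 and 1.73 and overlapped through libraries 5 and 4. Kcna5, the potassium channel of the ultrarapid current, was at 2.19, 4.51 and 4.39 against 6.23, 4.55 and 3.43 and overlapped too, with opposite directions in the ApoE-/- libraries (log2 difference -0.99) and the ApoE-/- Timp3-/- libraries (0.30), a difference that was not tested.

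The muscarinic pathway was divided. Of 9 compared genes, Kcnj3 followed the split, 5 in all were higher without overlap and 2 were lower. Over all compared genes the shares without overlap were 8.72% higher and 8.95% lower. Chrm2, the cardiac muscarinic receptor, was at 15.9, 21.3 and 18.2 against 8.55, 14.2 and 11.8 (log2 difference 0.65 ± 0.23 SE). Gnao1, a G protein alpha subunit, was at 4.91, 4.03 and 5.08 against 3.05, 2.56 and 1.77 (0.73 ± 0.18 SE). Gnai2, another alpha subunit gene, was lower without overlap (-0.35 ± 0.09 SE), as was Rgs4, a regulator of G protein signalling (-0.37 ± 0.18 SE).

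Of 5 compared transcription factors of the atrial list, 3 were higher without overlap and 0 reached a log2 difference of 1. Tbx5, a T-box factor of atrial and conduction identity, was at 7.26, 7.53 and 8.22 against 3.94, 4.34 and 3.57 (log2 difference 0.81 ± 0.08 SE). Etv1, known for its role in fast-conducting atrial muscle, was at 2.08, 1.64 and 2.06 against 0.791, 1.25 and 0.779 (0.60 ± 0.13 SE). Gata6 was at 10.7, 12.0 and 14.6 against 7.30, 8.93 and 9.07 (0.51 ± 0.15 SE). Nr2f2 and Hey1 overlapped, and Nr2f1 was too low to compare. Over all atrial lists together, 10 of 26 compared genes followed the split upward and none downward, and 15 were higher without overlap. Over all compared genes, 0.542% followed it upward and 8.72% were higher without overlap. The given markers Myl4, Sln, Bmp10, Sbk2 and Stard10 are among the 10.

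Genes of the sinoatrial node and conduction system did not follow the split with all 6 libraries. Only 7 of 18 reached the minimum mean FPKM of 1 and 0 of these followed it, with a median log2 difference of 0.04. Cntn2, an adhesion molecule of conduction myocytes, came nearest, at 1.57, 2.99 and 2.11 against 0.473, 0.505 and 1.12 (log2 difference 0.92 ± 0.25 SE), and followed the split without library 1 (1.06) or without library 4 (1.09). Gjc1, the connexin 45 gene, was slightly lower without overlap (-0.24 ± 0.10 SE). Tbx3, a repressor that sets node identity, overlapped, at 2.90, 2.67 and 2.19 against 1.90, 2.25 and 2.38.

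Among the conduction genes below the minimum, Hcn4, the pacemaker channel gene, was at 0.730, 0.980 and 0.665 against 0.434, 0.610 and 0.360. Shox2, a factor of the sinoatrial node, was at 0.865 in library 1 and listed at 0 in the other 5. Cpne5 was at 0.751, 1.79 and 1.03 against 0.0404, 0.0857 and 0.185. The groups of Hcn4 and Cpne5 did not overlap, but at these levels the precision is limited and the number of reads behind them is unknown.

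Valve and endocardial genes gave 2 that followed the split upward of 8 compared, of 16 listed, against 0.542% of all compared genes. Fmod, the matrix proteoglycan fibromodulin, was at 10.2, 9.55 and 6.71 against 3.08, 1.87 and 2.20 (log2 difference 1.53 ± 0.22 SE). Comp, another cartilage-type matrix protein gene, was at 4.94, 3.19 and 3.19 against 2.35, 0.659 and 1.11 (1.05 ± 0.34 SE), and no longer followed the split when library 1, 3 or 4 was left out. Cytl1 was higher without overlap by a log2 difference under 1 (0.69 ± 0.30 SE). Scx, the tendon and valve factor scleraxis, ran the other way, at 0.922, 0.525 and 0.745 against 3.34, 1.50 and 1.50 (-0.80 ± 0.28 SE).

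Ventricular genes mostly overlapped between the sides. Of 13 compared, 0 followed the split, the median log2 difference was -0.10, and Myl3 and Irx4 were lower without overlap. Over all compared genes, 8.95% were lower without overlap. Myl3 was at 1296, 1767 and 1541 against 2335, 1769 and 2095, so libraries 5 and 3 all but met (log2 difference -0.43 ± 0.17 SE). Irx4, a ventricular homeobox factor, was at 4.41, 3.00 and 2.90 against 5.20, 5.38 and 4.87 (-0.49 ± 0.16 SE). Myl2 overlapped, at 3233, 4399.6 and 3954 against 5013, 4099 and 5517 (-0.34 ± 0.18 SE), as did Fhl2 and Mybpc3. Hey2, a factor of compact ventricular muscle, was higher without overlap by 0.22.

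Calcium handling genes beyond sarcolipin mostly overlapped. Of 12 genes, Sln followed the split and Cacna1c, the main L-type channel subunit, was higher without overlap (0.40 ± 0.10 SE), while the other 10 overlapped. The shares over all compared genes were 0.542% following the split upward and 8.72% higher without overlap. Atp2a2, the SERCA gene, was at 1505, 1962 and 1858 against 1354, 1696 and 1247. Pln was at 1345, 1722 and 1763 against 1236, 1843 and 1333. The pump gene and the phospholamban gene overlapped between the sides, while the sarcolipin gene was far apart.

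**Figure D4:**
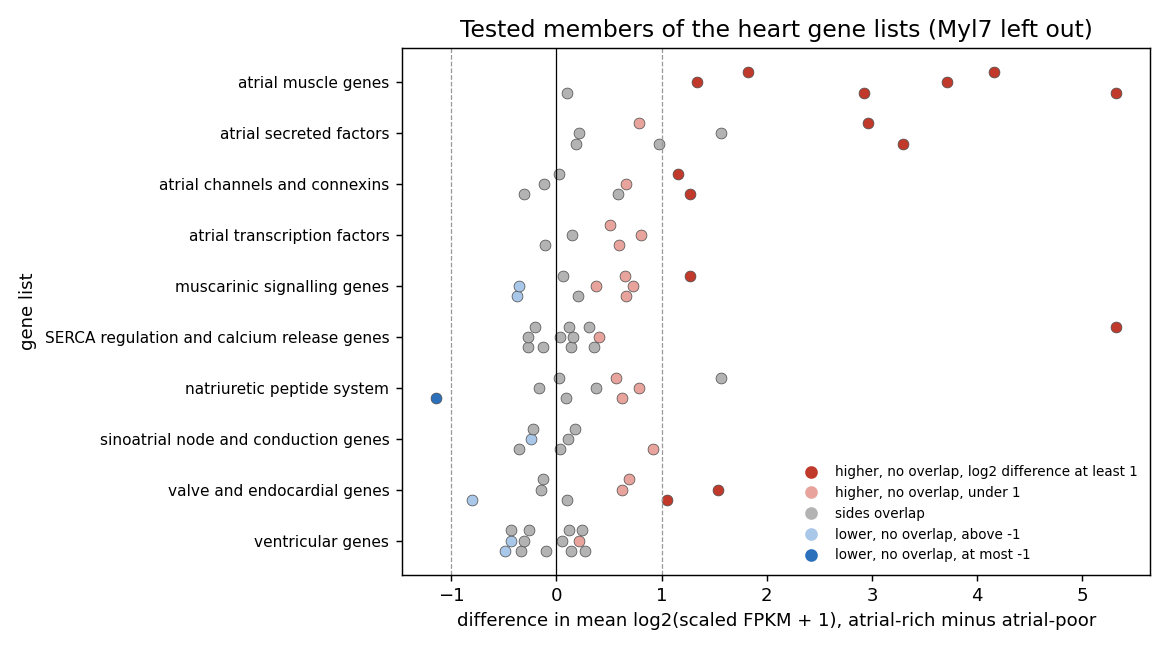
Difference between the mean log2(scaled FPKM + 1) of the atrial-rich and of the atrial-poor libraries on the horizontal axis for each compared member of 10 heart gene lists, with Myl7 left out; each point is a gene, full colour marks genes that follow the split and pale colour those separate by a smaller difference. Atrial muscle genes reach 5.32, conduction and ventricular genes stay between the lines at a log2 difference of 1 and -1, and Nppb is the one point at or beyond -1.

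Among markers of other cell types, 3 of 8 compared adipocyte genes followed the split upward, against 0.542% of all compared genes. Of these, Plin1 and Retn barely separated in library 6, at 0.270 and 0.276 against highest atrial-poor values of 0.209 and 0.201. No compared gene of the nerve, epicardial, smooth muscle, lung, skeletal muscle, fibroblast, endothelial, macrophage or red blood cell lists followed the split. Library 1 stood apart in several of these markers. The 8 compared adipocyte genes were all highest in library 1, against 18.0% of all compared genes. The summed FPKM of the adipocyte list was 292 in library 1 and 63.0 in library 5, and between 10.1 and 12.7 in the other 4. Adipoq, the adiponectin gene, was at 19.97, 6.37 and 0.445 against 0.245, 0.513 and 0.155. Ucp1, the uncoupling protein of brown fat, was at 27.2 in library 1 and at 0.0395 or below elsewhere. The sum in library 6, which is atrial-rich, was 12.7, within the range of the atrial-poor libraries, so the fat genes and the atrial genes did not run together in every library.

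Other tissue markers pointed to library 1 as well. Scgb1a1, the secretoglobin of airway club cells, was at 86.0 in library 1, at 0.117 in library 2 and listed at 0 in the other 4. Scgb3a2 was at 12.8 in library 1 and listed at 0 elsewhere, while the alveolar marker Sftpc was at 0.0729 in library 1 and at 0 in the rest. Cyp2f2, outside the lists and looked at after its values were seen, did follow the split upward. It was at 10.3, 0.0641 and 0.0341 against listings at 0, almost all of it in library 1. The part of these tissues in the atrial differences was not tested. Without library 1 the log2 differences of Sln, Myl4 and Mybphl were 5.09, 3.995 and 3.49. Sides that are separate stay so when a library is left out.

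Of 5 compared epicardial and mesothelial genes, 3 were higher without overlap, against 8.72% of all compared genes, and the other 2, Wt1 and Aldh1a2, overlapped. Library 1 was the highest of the 6 for 4 of these 5, against 18.0% of all compared genes. Upk3b, a marker of mesothelium and epicardium, was at 8.56, 5.22 and 5.68 against 2.58, 2.89 and 3.19 (log2 difference 0.92 ± 0.20 SE). All 8 macrophage genes were higher on average on the atrial-rich side, and all were highest in library 1, against 18.0% of all compared genes. Of these 8, 4 were separate, against 8.72% separate upward over all compared genes, and 0 followed the split. Cd163, a scavenger receptor of resident macrophages, was at 3.37, 2.03 and 2.02 against 1.06, 1.04 and 0.528 (0.88 ± 0.23 SE). All 10 endothelial genes were lower on average, 3 of them without overlap, against 8.95% of all compared genes. Egfl7, a secreted endothelial factor, was at 34.6, 34.5 and 30.1 against 52.9, 45.8 and 51.0 (-0.58 ± 0.09 SE). Fibroblast genes showed no common direction, with 0 of 10 following the split. Among immediate early genes, which respond to handling, 0 of 7 followed the split and 2, Ier2 and Btg2, were lower without overlap, against the same 8.95%.

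**Figure D5:**
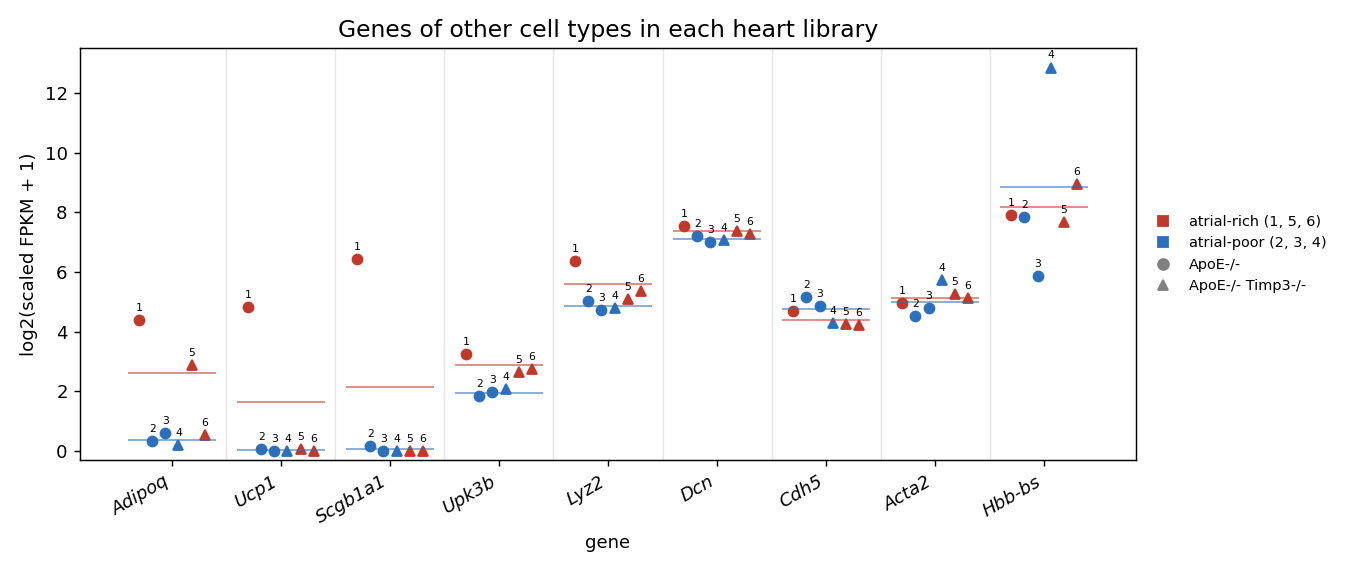
Genes of other cell types in each library, as log2(scaled FPKM + 1), with colours for side, symbols for genotype, numbers for the library and lines for the mean of a side. Adipoq, Ucp1 and Scgb1a1 stand out in library 1, Upk3b is separate between the sides, and Hbb-bs stands out in library 4 at 7416.

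Among the 63 genes that followed the split upward, 10 were in the atrial lists and 15 in any list. Tmem163, which encodes a zinc transporter, was at 9.13, 6.64 and 8.58 in libraries 1, 5 and 6 and listed at 0 in libraries 2, 3 and 4. Fgf12, which encodes an intracellular partner of sodium channels, was at 6.67, 2.10 and 4.47, against 0.219 and 0.101 in libraries 2 and 3 and a listing at 0 in library 4. Hamp, the gene of the iron hormone hepcidin, was at 2.46, 10.1 and 3.72 against 0.350 in library 2, 0 in library 3 and 0.339 in library 4. These 3 were present in every atrial-rich library.

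Another group of the leading genes was carried mainly by library 1. Car3, the carbonic anhydrase of fat and muscle, was at 102, 26.7 and 3.09 against 1.06, 1.28 and 0.584. Pck1, which encodes an enzyme of glycerol and glucose synthesis, was at 50.0, 8.48 and 1.29 against 0.234, 0.140 and 0.222, a log2 difference of 3.11 that was 1.94 without library 1. Spp1, the osteopontin gene, was at 33.7, 3.73 and 6.996 against 1.32, 0.826 and 0.376. Library 1 was the highest of the 6 for 35 of the 63 genes, and it was also the library with the adipocyte and airway markers. The share over all compared genes was 18.0%. By the rule the highest library of the 63 is always an atrial-rich one, so these shares are not alike and their difference is partly fixed.

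Some of the leading calls concern listings at 0. A listing at 0 in some library was found for 19 of the 63 higher genes and for 11 of the 23 lower ones. Gm13339, a pseudogene of mitochondrial type, was at 1456, 2234 and 1772 on the atrial-rich side and listed at 0 on the other, but its neighbours of the same kind, Gm13340 and Gm13341, had far higher values on both sides, so the split of reads among them is uncertain. Pm20d2 was at 11.7, 12.9 and 12.2, against 0 in libraries 2 and 3 and 10.5 in library 4. Hdgfl2 and Gm10762 were listed at 0 in all 3 atrial-rich libraries.

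Among lower genes with a value in every library, Ptgds, the prostaglandin D2 synthase gene, was at 72.8, 76.0 and 65.1 against 331, 266 and 98.9 (log2 difference -1.52 ± 0.54 SE). Ankrd23, a stretch-responsive ankyrin repeat gene of muscle, was at 92.3, 76.7 and 64.8 against 393, 226 and 100.4 (-1.42 ± 0.59 SE), and did not follow the split without library 2. Both were less far from the atrial-rich side in library 4 than in libraries 2 and 3. Gm15896 was at 1.01, 0.635 and 0.529 against 5.32, 4.95 and 5.05 (-1.83 ± 0.12 SE).

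The genotype comparison was then made with the atrial side as a term, because the sides are unequally divided between the genotypes. With genotype alone, the 26 atrial genes had a median log2 difference, double mutant minus control, of 0.39, with 23 above 0. With the side as a term the median was 0.13, with 18 above 0, and the median of all compared genes was -0.0098. For Myl4 the difference was 1.68 ± 1.47 (SE) with genotype alone and 0.33 ± 0.39 with the side. For Sln it was 1.70 ± 1.91 and -0.09 ± 0.32, and for Dkk3 1.15 ± 1.16 and 0.05 ± 0.12. The side was set by Myl7, and Myl4 and Sln are given markers of it. Smaller differences of atrial genes with the side as a term thus follow from how the sides were chosen. Of the 26 atrial genes, 0 reached an adjusted p of 0.05 by limma in either fit. At an unadjusted p under 0.05 there were 2 with the side and 1 with genotype alone.

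With the side as a term, 5 of 11629 genes reached the threshold by limma, 0.0430% of them, and 16.4% had an unadjusted p under 0.05. Patz1, Trim12a and Wdfy1 were listed at 0 in all 3 control libraries, and Mapkapk5 and Gm20432 in all 3 double mutants. With no gene listed at 0 in any library, limma passed 0 genes, with 2005 at an unadjusted p under 0.05. The 5 genes became 46 when library 4 was left out and 25 when library 1 was. Timp3, the targeted gene, was lower in the double mutants by either fit, at a log2 difference of -0.61 ± 0.19 (SE) with genotype alone and -0.74 ± 0.13 with the side, with adjusted p = 0.29 and 0.17 by limma. Its scaled FPKM was 44.7, 37.7 and 39.4 in libraries 1, 2 and 3 and 19.7, 31.2 and 29.2 in libraries 4, 5 and 6, without overlap.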

How the data were processed

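Messenger RNA of 6 mouse hearts was sequenced from Trizol-extracted RNA with standard Illumina libraries, per the labels. The authors deposited 1 transcript file per library, with an FPKM for each transcript, per the file attributes; the other deposited values of these files, coverage included, served only for depth. Per the submitters' processing notes the tools were TopHat, Bowtie and Cufflinks and the build was NCBIM37, with versions and settings not given in the sources used here. No reads per gene are in these values, so no count test and no counting interval were possible.

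A gene's FPKM was the sum over its reference transcripts and over assembled transcripts of at least 300 nt that shared at least 50% of exonic bases. A later annotation gave symbols alone, and coordinates are those of the files. Of 36757 genes, 193 with a transcript absent from a file were left out. FPKM were scaled by the median of ratios, and log2(scaled FPKM + 1) was used for genes with a mean FPKM of at least 1. Listings at exactly 0 can be failed estimates, so no fold is given against them.

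The sides were set by Myl7, and the members and the 23 gene lists were chosen with earlier results of these data known. Differences between the sides carry no p-value. Genotype effects were fitted by limma (version 3.58.1, R 4.3.3), two-sided, with the intensity trend option, the side as a term and Benjamini-Hochberg adjustment at 0.05. The labels do not say how the samples of a genotype relate beyond calling the controls littermates, so these p-values reflect only the spread among the 6 samples, which may be technical. Named genes were the 6 given markers, up to 5 members of each heart list and 2 of each other list by size of difference, the 15 leading genes higher and 10 lower, and those past the genotype test; others were named after their values were seen, and a few genes picked by this rule are left unreported. Alternatives were other scalings, pseudocounts, filters, reference transcripts alone, a smaller fold, sides by the other markers and leaving out each library.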

Additional observations from a re-analysis of the deposited data

Results flagged for a closer look

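Within each genotype the atrial-rich and atrial-poor libraries could be compared on their own, with 1 or 2 libraries a side. For 4 named genes every library of one genotype moved one way and every library of the other genotype the opposite way; these differences were not tested. Kcna5, the atrial potassium channel gene, had a log2 difference, atrial-rich minus atrial-poor, of -0.99 in the ApoE-/- libraries and 0.30 in the ApoE-/- Timp3-/- libraries, so that the first less the second was -1.29. Mfap5, a microfibril gene of fibroblasts, was at -0.55 and 0.33, which differ by -0.89. The globin genes Hbb-bs, at 1.07 and -4.55, and Hba-a1, at 1.06 and -3.99, differed by 5.62 and 5.05. Library 4, the only atrial-poor double mutant, held most of the red blood cell signal, with a summed FPKM of 23390 for the list against 208 to 2132 in the other 5 libraries.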

How the results depend on the processing

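Sides set by the other 5 markers were the same, which is no independent support, since these markers were given with the split. The 63 higher genes became 119 with a pseudocount of 0.1, 25 at a mean FPKM of at least 5, 103 with reference transcripts alone, 198 at a log2 difference of 0.58, and 71 to 102 with a library left out. The 23 lower genes became 49, 11, 62 and 130 under the same settings, 12 with no gene listed at 0 and 32 to 53 with a library left out. Of the 86 calls, 49 were among the 165 from reference transcripts alone. The 10 atrial genes higher became 8 with reference transcripts alone and 8 at a mean FPKM of 5, and ran from 9 to 11 with a library left out. The 2 conduction and valve genes became 1 under quantile normalization, at a mean FPKM of 5 and with reference transcripts alone, 3 with a pseudocount of 0.1, and 1 to 2 with a library left out. No ventricular gene followed the split downward in any setting. The order of Myl7 was kept by 15 atrial genes instead of 6, and by 6038 of all genes instead of 2466, without scaling, and by 985 at a mean FPKM of 5. The 5 genotype calls by limma became 0 without a filter (2530 at an unadjusted p under 0.05), 1 at a mean FPKM of 5, 3 with a longest transcript of at least 300 nt, 0 with no gene listed at 0, 3 with Myl7 as a continuous term, and 5 to 46 with a library left out, 46 without library 4 and 25 without library 1. The genotype difference of Apoe ran from -0.58 to 0.26 with a library left out, the latter without library 1. Of 32 named genes that followed the split, the call was lost for Comp without library 1, 3 or 4, Kcnj3 and Ankrd23 without 2, Nppb without 2 or 6, Cacna2d2 without 5 or 6, Tmem143 without 5 and ENSMUSG00000049647 without 6. The call was gained for Nppa without 2, Cntn2 without 1 or 4, Angpt1 without 4 or 5, Upk3b and Lyz2 without 5, Lrrn4 and Cfd without 6, Trim12a and Wdfy1 without 1, and Hba-a1 and Mapkapk5 without 4. With fewer libraries the no-overlap rule is easier to meet. Cacna2d2 fell below the minimum mean FPKM without 5 or 6, and the causes of the other losses and gains were not tested. The length filter and the filter on listings at 0 were chosen after seeing the data. No paired analysis was possible because the labels number the libraries 1 to 6 with no number shared between groups.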

Other observations

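Genes outside the lists were looked at after their values were seen. Pdk4, the kinase that limits glucose oxidation, was at a scaled FPKM of 217, 268 and 194 (libraries 1, 5 and 6) against 103, 100.4 and 144 (libraries 2, 3 and 4), so each atrial-rich library exceeded each atrial-poor one. Tcap, the titin cap of the sarcomere, was at 558, 521 and 602 against 692, 866 and 1110.3, also without overlap and in the other direction. Ptgfr, the receptor of prostaglandin F, was at 2.74, 2.30 and 1.85 against 0.130, 0.616 and 0.765. Erbb4, a neuregulin receptor, was at 2.83, 4.41 and 3.63 against 0.892, 1.57 and 1.22. The sides of both receptors were separate.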
